A study of Mus musculus with 6 samples.

Results

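The hypoxia-inducible factor (HIF) pathway was followed in macrophages after PGAM5 knockdown (KD) through 10 named genes, picked by symbol from the 54532 gene rows of each RNA-seq library. The 5 regulators were Hif1a, Arnt, Vhl, Egln1 and Egln3, and the 5 targets outside glycolysis were Adm, Ddit4, Fam162a, Vegfa and P4ha1. The cells were iBMDMs, mouse bone marrow-derived macrophages immortalized with retroviruses that carry v-raf and v-myc, and they were infected with lentiviruses encoding either control shRNA or shRNA against PGAM5, a mitochondrial phosphatase. Both groups received LPS at 100 ng/ml for 4 hours, and each had 3 libraries, named control 1 to 3 and PGAM5 KD 1 to 3. No unstimulated library was analysed here, so the values compare PGAM5 KD with control under LPS and say nothing of the LPS response itself. Both groups derive from an immortalized line, the number of shRNA sequences used against PGAM5 is not given in the sources used here, and neither is whether the 3 libraries of a group came from separate infections or cultures, so p-values measure the spread between these libraries, which may be technical.

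HIF is a pair of proteins, an oxygen-regulated alpha subunit such as HIF-1 alpha (Hif1a) and a stable partner, ARNT. With oxygen present, prolyl hydroxylases encoded by Egln genes mark the alpha subunit, VHL binds the mark, and the subunit is degraded. When hydroxylation stops, the pair binds DNA and switches on genes for glycolysis, blood vessel growth, mitophagy and survival. In macrophages, LPS is known to raise HIF-1 alpha also when oxygen is plentiful. The libraries measured mRNA only, and HIF-1 alpha protein, its hydroxylation and its DNA binding were not measured.

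Libraries held between 18163464 and 24388917 fragments on genes, a depth recovered from the FPKM values (fragments per kilobase of exon, scaled to library depth). Pgam5, the targeted gene, was at 17.1, 12.97 and 13.4 FPKM in control and at 4.33, 5.75 and 4.53 FPKM in PGAM5 KD libraries, a log2 fold change of -1.40 (adjusted p = 0.000358, limma), lower in all 3 libraries labelled PGAM5 KD. The 9 macrophage markers summed to 2977 to 3062 FPKM in control and 2689 to 2717 FPKM in PGAM5 KD libraries, with Mertk at 0. Of the 8 tested, 4 were higher and 3 lower in PGAM5 KD cells, beside 31.7% of all genes called, 16.8% higher and 14.9% lower. Single markers moved as far as the HIF targets, with Fcgr1 at 3.25-fold and Adgre1 at 1.91-fold. The 3 called lower were Csf1r at 0.639-fold, Lyz2 at 0.76-fold and Cd68 at 0.868-fold. The part of these markers in the results below was not tested. The 8 neutrophil markers summed to between 1.47 and 2.15 FPKM over all 6 libraries, with Ly6g, S100a9, Mpo, Elane and Ltf at 0. The sums of the fibroblast, endothelial and lymphocyte lists stayed at or below 0.601 FPKM.

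All 5 targets had more mRNA in PGAM5 KD than in control iBMDMs, while of the 4 regulators tested only Egln1, which encodes a prolyl hydroxylase, rose. Fam162a rose 1.96-fold, Adm 2.19-fold and Ddit4 2.55-fold in mean FPKM, and Vegfa, P4ha1 and Egln1 rose by smaller ratios of 1.38, 1.36 and 1.35. Hif1a differed by 1.08-fold, Vhl by 1.11-fold and Arnt by 0.987-fold, and none of these passed the test. A gene was called higher or lower at an adjusted p under 0.05 (limma on log2(FPKM + 1), Benjamini-Hochberg over the 10540 genes averaging 1 FPKM or more). By that rule 6 of the 9 members tested were higher and 0 were lower, against 31.7% of all genes called, 16.8% higher and 14.9% lower. The members were chosen with earlier results of these data known, so this count is not independent evidence of a direction. Egln3 was below the filter and was not tested, and the call of Vegfa was lost under 8 of 16 alternative settings. These genes were called among 1771 higher and 1575 lower genes, and scaling the libraries to TPM gave 1088 higher and 2282 lower, with 5 members still called higher and 0 lower.

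The log2 fold change had a median of 0.86 over the 5 targets and 0.11 over the 5 regulators (Egln3 entering with its untested difference), beside 0.01 over all genes tested. The libraries of the 2 groups did not overlap for 7 of the 9 tested members, beside 47.1% of all genes tested. None of the 9 passed an absolute log2 fold change above 1 in the main fit, the size that 1.32% of all genes reached together with the adjusted p. That count depends on the setting, since Adm and Ddit4 stood at 1.10 and 1.29 with a pseudocount of 0.1 and at 1.16 and 1.33 with voom on recovered fragments, and Ddit4 stood at 1.09 under TPM scaling, called in each case. Adm also stood at 1.003 without PGAM5 KD replicate 2, and Ddit4 at 1.018 without PGAM5 KD replicate 1, both called. In these bulk samples, more RNA per cell and more cells with a transcript cannot be told apart.

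**Figure D1:**
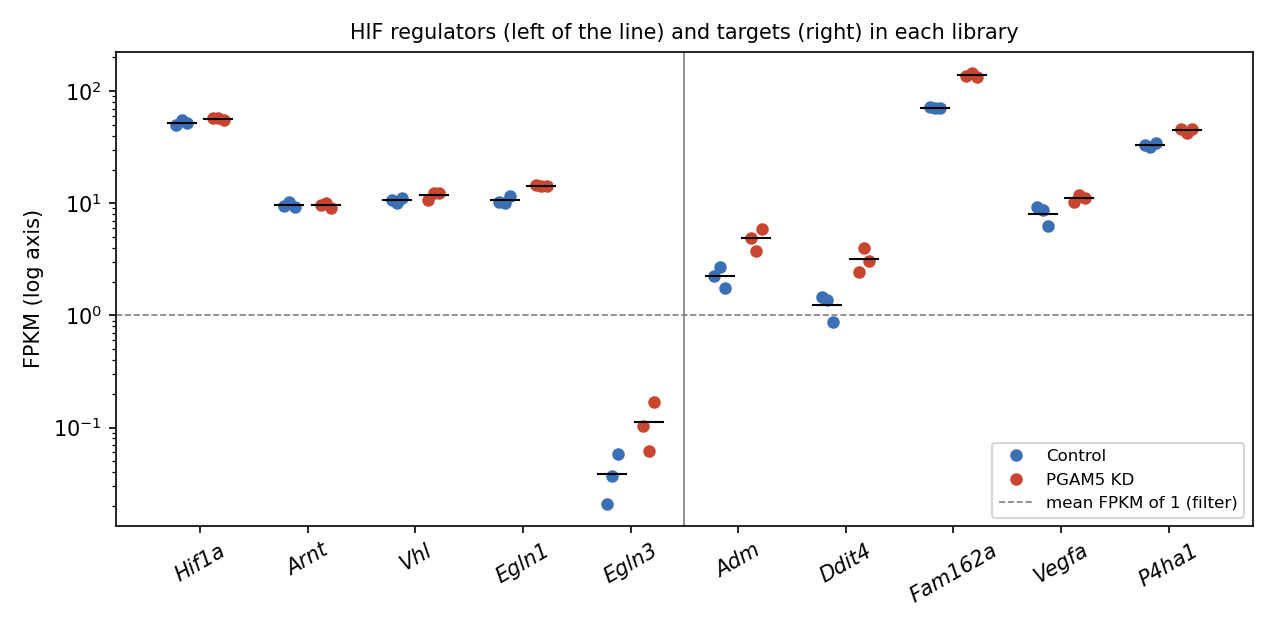
FPKM of each member (y axis, log scale) in the 3 control (blue) and 3 PGAM5 KD (red) libraries, with black bars for group means, a grey vertical line between regulators and targets, and a dashed line at the filter of 1 FPKM. The PGAM5 KD points lie above all control points for every target and for Egln1, Hif1a and Egln3, and the groups overlap for Arnt and Vhl.

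The upstream sequences of the 6 members called higher are shown because HIF binds DNA at a short core, ACGTG or GCGTG, within the hypoxia response element. RefSeq sequence (GRCm38.p6) matched all 10 members, and the 250 bases before each gene's RefSeq start were searched on both strands. The stretches run 5′ to 3′ along the gene's strand, with cores in capitals, and a core on the opposite strand appears as CACGT or CACGC. Bases that GENCODE M21 places in an exon of the gene were cut from the end of 3 of them, 33 for Fam162a, 64 for Ddit4 and 70 for Egln1.
Fam162a: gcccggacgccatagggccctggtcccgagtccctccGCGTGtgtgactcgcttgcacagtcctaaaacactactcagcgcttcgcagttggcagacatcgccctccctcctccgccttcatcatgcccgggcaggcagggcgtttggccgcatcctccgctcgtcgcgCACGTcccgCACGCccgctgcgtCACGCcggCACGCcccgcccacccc
Ddit4: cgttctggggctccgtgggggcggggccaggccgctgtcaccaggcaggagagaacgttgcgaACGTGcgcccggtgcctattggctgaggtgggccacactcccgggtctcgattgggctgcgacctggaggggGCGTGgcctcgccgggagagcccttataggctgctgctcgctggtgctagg
Adm: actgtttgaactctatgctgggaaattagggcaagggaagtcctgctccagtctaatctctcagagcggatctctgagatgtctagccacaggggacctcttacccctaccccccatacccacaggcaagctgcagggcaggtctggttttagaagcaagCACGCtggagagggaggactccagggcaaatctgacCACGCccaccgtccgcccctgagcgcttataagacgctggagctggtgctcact
P4ha1: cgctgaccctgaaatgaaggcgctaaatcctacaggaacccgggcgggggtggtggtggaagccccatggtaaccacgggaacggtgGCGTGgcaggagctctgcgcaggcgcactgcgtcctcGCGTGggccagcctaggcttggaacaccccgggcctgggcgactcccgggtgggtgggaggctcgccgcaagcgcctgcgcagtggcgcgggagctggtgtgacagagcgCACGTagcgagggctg
Vegfa: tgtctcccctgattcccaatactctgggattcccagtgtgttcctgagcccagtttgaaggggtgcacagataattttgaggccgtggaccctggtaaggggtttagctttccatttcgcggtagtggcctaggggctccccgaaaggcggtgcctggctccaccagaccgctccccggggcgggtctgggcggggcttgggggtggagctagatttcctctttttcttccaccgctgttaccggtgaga
Egln1: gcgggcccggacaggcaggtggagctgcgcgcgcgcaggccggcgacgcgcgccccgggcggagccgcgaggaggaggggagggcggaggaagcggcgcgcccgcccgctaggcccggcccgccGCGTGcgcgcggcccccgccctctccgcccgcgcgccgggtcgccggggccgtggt

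These stretches lie at chr16:36071595-36071811 (minus strand), chr10:59951835-59952020 (minus), chr7:110627407-110627656 (plus), chr10:59323046-59323295 (plus), chr17:46032378-46032627 (minus) and chr8:124949325-124949504 (minus). In the full 250 bases, Fam162a held 6 cores, the most of any member, and 4 of them lie close together between 81 and 50 bases before the start. P4ha1 held 3 cores, and Adm, Ddit4 and Egln1 held 2 each. Vegfa held 0, as did Vhl, which says only that these letters are not in this window. Hif1a held 3 cores, counted where CACGTG reads as ACGTG on both strands and so overlaps itself, while Arnt and Egln3 held 1 each. The RefSeq start of Hif1a lies inside the gene span that GENCODE M21 gives, so its window (chr12:73907617-73907866) is within that span and not before it. At least 1 core was found in 4 of 5 regulators and 4 of 5 targets, and at least 2 in 2 regulators and 4 targets. Among one promoter for each of 27025 genes, 38.6% held a core and 16.8% held at least 2 (ACGTG in 16.6%, GCGTG in 28.2%). The members' windows were 50.8% to 86.0% G and C, and among the 15733 promoters with at least 50% the shares were 52.0% and 24.7%. A match of 5 letters is a description of the sequence and not a measured binding site.

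Hif1a, the oxygen-regulated subunit itself (ENSMUSG00000021109, chr12:73901375-73947530), was at 50.1, 55.3 and 52.3 FPKM in control and at 57.6, 57.6 and 55.5 FPKM in PGAM5 KD libraries. The lowest PGAM5 KD library lay just above the highest control library. The log2 fold change was 0.11 ± 0.044 (SE, 95% interval 0.0093 to 0.22, adjusted p = 0.0925, limma), so the interval left out 0 before adjustment and the call was not made after it. It was called without control replicate 2 (adjusted p = 0.0471) and with voom on recovered fragments (0.0338), and scaling to TPM brought it to 0.04 (0.595). Between 5366 and 7981 fragments lay behind each value. An antisense gene, Gm15283, shares 330 exon bases with Hif1a, and it held 1 to 13 fragments in a library.

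Arnt, the stable partner of the alpha subunit (ENSMUSG00000015522, chr3:95434388-95497240), was at 9.56, 10.3 and 9.28 FPKM in control and at 9.68, 9.99 and 9.12 FPKM in PGAM5 KD libraries. The libraries overlapped between the groups, and a log2 fold change of -0.02 (95% interval -0.16 to 0.12, adjusted p = 0.848, limma) bounds any difference to a small one in either direction. Its sign turned without control replicate 2 (0.02) or PGAM5 KD replicate 3 (0.02).

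Vhl, the subunit of the ubiquitin ligase that recognizes hydroxylated HIF alpha (ENSMUSG00000033933, chr6:113623959-113631633), was at 10.7, 10.1 and 11.1 FPKM in control and at 10.8, 12.3 and 12.3 FPKM in PGAM5 KD libraries. PGAM5 KD 1 fell inside the control range and the other two lay above it. The log2 fold change was 0.14 (95% interval -0.02 to 0.29, adjusted p = 0.152, limma).

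Egln1 encodes PHD2, the main prolyl hydroxylase that marks HIF-1 alpha, and is itself known as a HIF target (ENSMUSG00000031987, chr8:124908587-124949324). It was at 10.2, 10.0 and 11.7 FPKM in control and at 14.5, 14.3 and 14.1 FPKM in PGAM5 KD libraries. All PGAM5 KD libraries lay close together and above the highest control library, control 3. Its log2 fold change of 0.40 ± 0.062 (SE, adjusted p = 0.0035, limma) was the only one among the 4 regulators tested to be called.

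Egln3 encodes PHD3, a related hydroxylase that is strongly hypoxia-induced in many cells (ENSMUSG00000035105, chr12:54178981-54203860). It was barely detected, with 1, 2 and 3 fragments in control and 6, 3 and 11 fragments in PGAM5 KD libraries. These counts correspond to 0.021, 0.037 and 0.058 FPKM in control and to 0.10, 0.062 and 0.17 FPKM in PGAM5 KD libraries. The highest control library and the lowest PGAM5 KD library both held 3 fragments, and without the filter on low values the adjusted p was 0.237 (limma), so no difference was detectable at this depth.

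**Figure D2:**
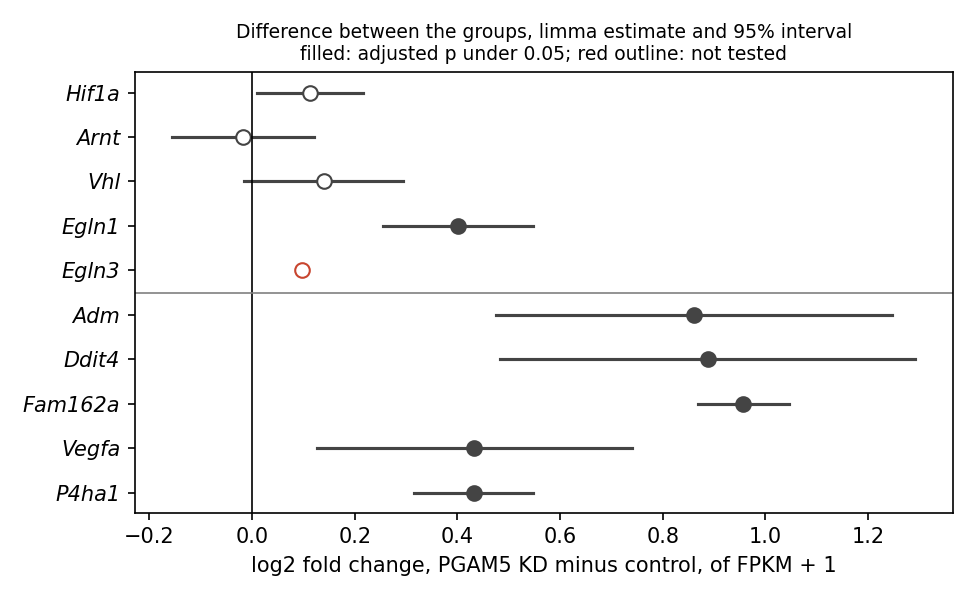
Log2 fold change of PGAM5 KD minus control for each member (x axis, on log2(FPKM + 1)), with limma's 95% interval as a line, the regulators above and the targets below the grey line. The 5 targets and Egln1 are filled (adjusted p under 0.05), the intervals of Arnt and Vhl cross 0, that of Hif1a ends just above it, and Egln3 (red outline) was not tested.

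Fam162a, a mitochondrial protein linked to hypoxia-induced cell death (ENSMUSG00000003955, chr16:36043761-36071594), was the most abundant member and changed most regularly. It was at 71.8, 70.5 and 70.4 FPKM in control and at 136.3, 145.2 and 134.3 FPKM in PGAM5 KD libraries. The lowest PGAM5 KD library stood far above every control library, and the log2 fold change was 0.96 ± 0.037 (SE, adjusted p = 1.79e-05, limma). Wdr5b, on the opposite strand, shares 168 exon bases with it but held only 21 to 91 fragments, against 1108 to 2785 for Fam162a.

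P4ha1, the catalytic subunit of collagen prolyl 4-hydroxylase (ENSMUSG00000019916, chr10:59323296-59373304), was at 33.2, 31.7 and 34.5 FPKM in control and at 46.5, 42.7 and 46.1 FPKM in PGAM5 KD libraries. The groups did not overlap, and the log2 fold change was 0.43 ± 0.049 (SE, adjusted p = 0.000946, limma).

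Ddit4 encodes REDD1, an inhibitor of mTORC1 signaling in stressed cells (ENSMUSG00000020108, chr10:59949669-59951834). It was at 1.47, 1.38 and 0.876 FPKM in control and at 2.44, 4.02 and 3.06 FPKM in PGAM5 KD libraries, from 30 to 131 fragments. Every PGAM5 KD library exceeded every control library, although the PGAM5 KD values were spread widely. The log2 fold change was 0.89 ± 0.17 (SE, adjusted p = 0.00875, limma), and with a pseudocount of 0.1 in place of 1 it was 1.29, since the added constant shrinks the change of genes near 1 FPKM.

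Adm, the precursor of the vasodilator peptide adrenomedullin (ENSMUSG00000030790, chr7:110627661-110629820), was at 2.24, 2.69 and 1.74 FPKM in control and at 4.95, 3.78 and 5.93 FPKM in PGAM5 KD libraries. The groups did not overlap, and PGAM5 KD 2 lay nearest to control. The log2 fold change was 0.86 ± 0.16 (SE, adjusted p = 0.00817, limma), from 55 to 234 fragments a library, and 1.10 with a pseudocount of 0.1.

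Vegfa, the vascular growth factor (ENSMUSG00000023951, chr17:46016993-46032369), was at 9.22, 8.73 and 6.25 FPKM in control and at 10.3, 11.8 and 11.3 FPKM in PGAM5 KD libraries. The groups were separate, but the gap between control 1 and PGAM5 KD 1 was narrow and control 3 lay well below the other two. The log2 fold change was 0.43 ± 0.13 (SE, adjusted p = 0.0422, limma), the weakest call among the targets. The call was lost without control replicate 2 (adjusted p = 0.0621) and without PGAM5 KD replicate 1 (0.0602), 2 (0.116) or 3 (0.109). It was also lost with TPM scaling (0.0686), no filter (0.112), no mean-variance trend (0.0605) or a replicate block (0.0588). Without control replicate 3 the log2 fold change dropped to 0.28 (0.0389).

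Ordered by mean FPKM, which is scaled to exon length, control libraries ran from Fam162a through Hif1a and P4ha1 to Vhl, Egln1, Arnt, Vegfa, Adm, Ddit4 and Egln3. Vhl, Egln1 and Arnt overlapped in that order and could not be ranked. In PGAM5 KD libraries Egln1 stood clear above Vhl, Vegfa overlapped with Vhl and passed Arnt, and Adm overlapped with Ddit4. Fam162a, Hif1a and P4ha1 kept the top 3 places in both groups.

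To set targets against Hif1a inside each library, the FPKM of 8 members was divided by that of Hif1a, a measure that a scaling factor for a whole library cannot change. Fam162a stood at 1.35 ± 0.079 per Hif1a in control and 2.44 ± 0.078 in PGAM5 KD libraries (SD, n = 3), 1.80-fold higher. Ddit4 per Hif1a was 2.35-fold higher and Adm per Hif1a 2.04-fold higher. P4ha1 and Egln1 per Hif1a were 1.25-fold and 1.24-fold higher, again with no overlap between the groups. Vegfa per Hif1a was 1.27-fold higher, but its groups overlapped, and Vhl per Hif1a was at 1.03-fold and overlapped too. Arnt per Hif1a was the only ratio lower without overlap, from 0.185 ± 0.0068 to 0.169 ± 0.0046 (SD, n = 3), 0.911-fold. With 3 libraries against 3, the exact two-sided permutation p cannot go below 0.1, and the 6 ratios without overlap reached it (0.133 after Benjamini-Hochberg adjustment over the 8 ratios). In FPKM itself the groups did not overlap for 47.1% of all genes tested, and that share was not computed for ratios to Hif1a.

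**Figure D3:**
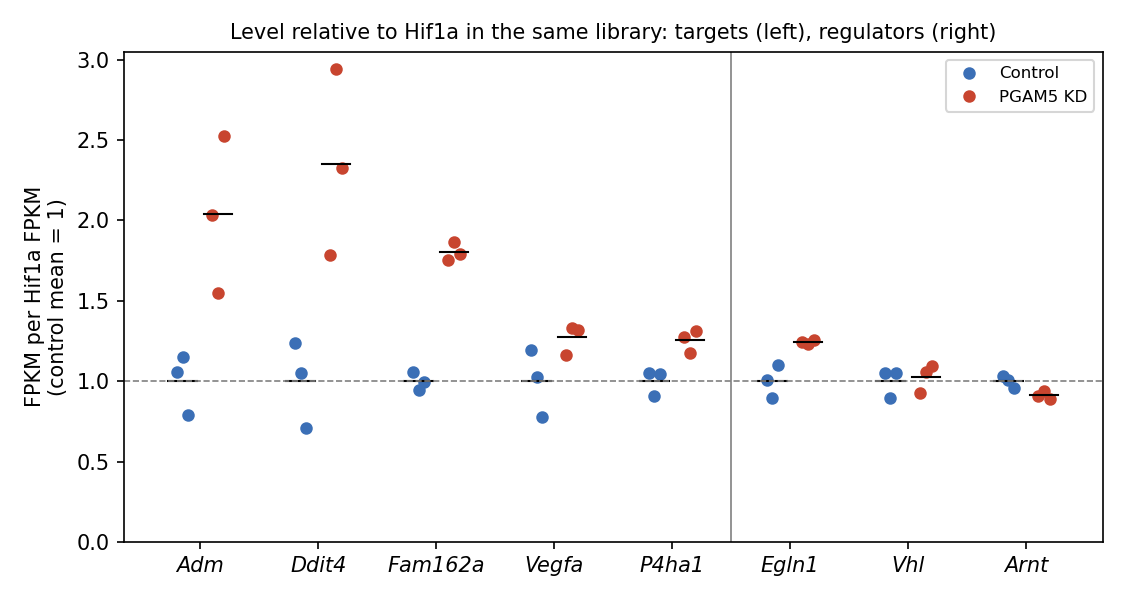
FPKM of 8 members divided by the FPKM of Hif1a in the same library, scaled so that the control mean is 1 (y axis), for 3 control (blue) and 3 PGAM5 KD (red) libraries, with black bars for group means. The PGAM5 KD means of Ddit4, Adm and Fam162a lie at 2.35, 2.04 and 1.80 times control, those of P4ha1 and Egln1 at 1.25 and 1.24, and Arnt lies below 1.

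Of 18 other HIF subunits and control genes, 14 were tested, 4 were higher, 2 were lower and 8 were not called, with a median log2 fold change of 0.06. Over all genes tested, 16.8% were higher and 14.9% lower, and the share of this list that was lower is close to that. Cited2, a HIF target whose product competes with HIF-1 alpha for the coactivators CBP and p300, was higher, at 277.2 FPKM in control and 351.6 FPKM in PGAM5 KD cells on average (log2 fold change 0.34, adjusted p = 0.00137, limma). It was 0.20 under quantile normalization (adjusted p = 0.0182). Ep300, the gene of p300, was lower under every alternative, and was at 11.7, 11.7 and 12.03 FPKM in control and at 7.86, 8.57 and 7.96 FPKM in PGAM5 KD libraries (log2 fold change -0.49, adjusted p = 0.000571, limma). Crebbp, the gene of CBP, was at 5.08, 4.48 and 5.17 FPKM in control and at 4.13, 3.46 and 3.55 FPKM in PGAM5 KD libraries (log2 fold change -0.33, adjusted p = 0.025, limma). Its call was lost with no filter (adjusted p = 0.0703) and without control replicate 1 (0.0749), control replicate 3 (0.0804), PGAM5 KD replicate 2 (0.0774) or PGAM5 KD replicate 3 (0.0779). Os9, which encodes an endoplasmic reticulum lectin, was called higher at a log2 fold change of 0.26, and lost its call under TPM scaling (adjusted p = 0.0666) and without control replicate 2 (0.0631), PGAM5 KD replicate 1 (0.0528) or PGAM5 KD replicate 3 (0.0573). Siah2, a ubiquitin ligase gene at a log2 fold change of 0.32, passed narrowly (adjusted p = 0.0497) and lost its call when any library but control 1 was left out (0.0609 to 0.139), with TPM scaling (0.0944), no filter (0.122), no mean-variance trend (0.0659) or a replicate block (0.0996). Cul2, the cullin of the VHL ligase, was the remaining gene called higher (log2 fold change 0.18, adjusted p = 0.0402, limma), and lost its call with TPM scaling (0.21), quantile normalization (0.0692), no filter (0.0748), no trend (0.0634), a replicate block (0.0957), and without control replicate 1 (0.112), control replicate 2 (0.107), PGAM5 KD replicate 1 (0.1) or PGAM5 KD replicate 2 (0.11). Under TPM scaling the list stood at 1 higher and 3 lower, and without control replicate 2 it also had 1 higher. Epas1, the other well known alpha subunit, was at 0 in 5 libraries and at 0.019 FPKM in control 2. The oxygen sensors Egln2 and Hif1an were not called, at means of 15.1 and 7.33 FPKM in control and 14.7 and 7.57 FPKM in PGAM5 KD cells.

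Among 35 other hypoxia-induced genes outside glycolysis, 24 were tested, 10 were higher, 4 were lower and 10 were not called, with a median log2 fold change of 0.13, beside 16.8% higher and 14.9% lower among all genes tested. The share that was lower is close to that of all genes. These genes were picked with earlier results of these data known, so their count is not independent evidence of a direction. Bnip3, a mitophagy receptor, was at 19.7, 18.0 and 16.9 FPKM in control and at 51.9, 54.4 and 51.3 FPKM in PGAM5 KD libraries (log2 fold change 1.48, adjusted p = 1.82e-05, limma). Bnip3l, the relative of Bnip3, was at means of 11.4 FPKM in control and 18.9 FPKM in PGAM5 KD cells (log2 fold change 0.69). Among the genes tested, the largest falls were in Bhlhe41 and Bhlhe40, a pair of transcriptional repressors, with log2 fold changes of -0.80 and -0.77, and in Tfrc, the transferrin receptor, at -0.43. Bhlhe40 was at 11.4, 11.3 and 11.3 FPKM in control and at 6.86, 5.66 and 6.21 FPKM in PGAM5 KD libraries, so the direction of the 5 targets was not that of every gene known to answer to hypoxia. Cxcr4, a chemokine receptor gene, averaged below the filter and was not tested, at 1.68, 0.877 and 1.30 FPKM in control and at 0.604, 0.152 and 0.136 FPKM in PGAM5 KD libraries, and the fit with no filter gave it a log2 fold change of -0.82 (adjusted p = 0.0485, limma). The named genes of this list that were tested kept their direction and their call under TPM scaling, quantile normalization and centring on the median.

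Of 20 partners and relatives of the members' products, 8 were tested, 2 were higher, 1 was lower and 5 were not called, with a median log2 fold change of -0.10, beside 16.8% higher and 14.9% lower among all genes tested. P4hb, protein disulfide isomerase and the beta subunit that P4HA1 needs, was at 299.4, 293.9 and 296.2 FPKM in control and at 465.6, 464.1 and 471.7 FPKM in PGAM5 KD libraries (log2 fold change 0.65, adjusted p = 1.54e-05, limma), so both subunit genes rose. Calcrl, the receptor that binds adrenomedullin together with a RAMP protein, was at 6.92, 6.75 and 6.36 FPKM in control and at 15.7, 15.1 and 12.98 FPKM in PGAM5 KD libraries (log2 fold change 1.02, adjusted p = 0.000167, limma). Ramp1 and Ramp3 were at 0 in every library, and Ramp2 was above 0 only in control 2 (0.045 FPKM) and PGAM5 KD 3 (0.099 FPKM). Nrp2, a coreceptor for VEGF family ligands, was at means of 125.1 and 94.9 FPKM (log2 fold change -0.40, adjusted p = 0.000593, limma). Of the VEGF receptor genes, Kdr was near 0, and Flt1 was below the filter, at 0.457, 0.250 and 0.360 FPKM in control and at 0.576, 0.579 and 0.638 FPKM in PGAM5 KD libraries, with an adjusted p of 0.112 (limma) in the fit with no filter.

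**Figure D4:**
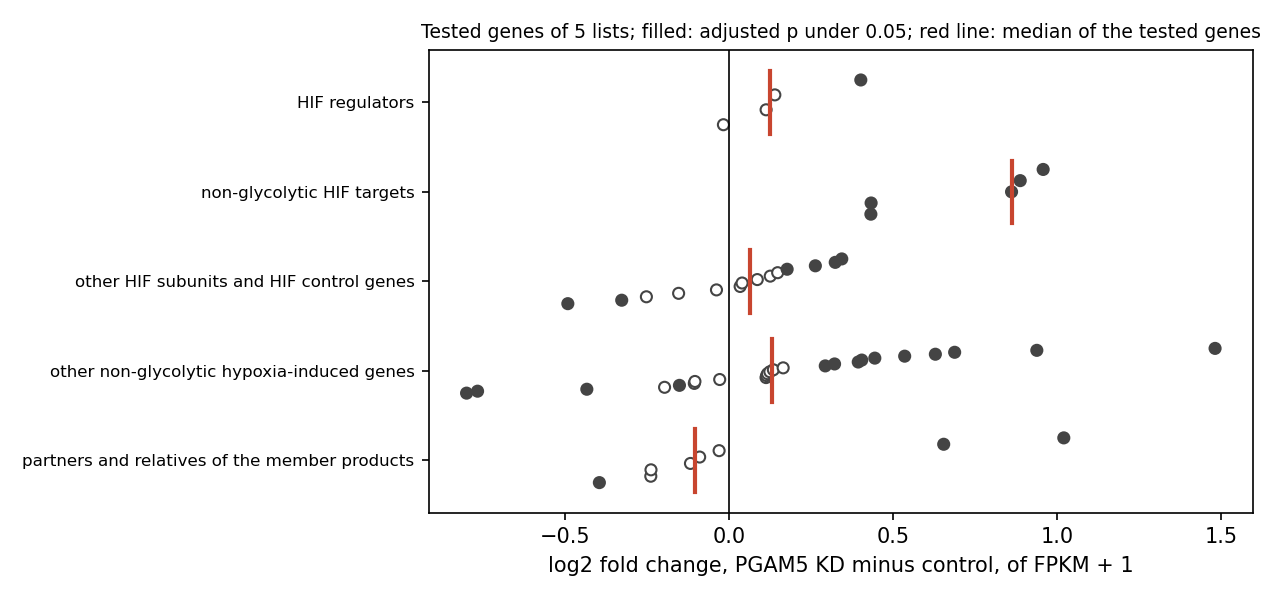
Log2 fold change of PGAM5 KD minus control (x axis, on log2(FPKM + 1)) for each tested gene of the regulators, the targets and the 3 other lists, with filled points for an adjusted p under 0.05 and a red line at the median of the tested genes. All 5 targets lie to the right of 0 with a median of 0.86, and the 3 other lists hold filled points on both sides.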

How the data were processed

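Messenger RNA was purified with poly-T beads and sequenced in 6 libraries of iBMDMs. The authors deposited FPKM values, 1 table per library, with no scaling between libraries beyond depth. The submitters' processing notes name HISAT2 2.0.5, featureCounts 1.5.0-p3 and mm10. Whether strand was kept is not given in the sources used here, so genes on opposite strands may share reads. Symbols and coordinates came from GENCODE M21 (GRCm38), which held 54495 of 54532 identifiers. FPKM times exon length gave whole fragments (tolerance 0.01) for 96.8% to 97.1% of values below 1000 fragments, which gave each library's depth. FPKM summed to 304393 to 304889 in control and 317936 to 324298 in PGAM5 KD libraries.

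Two-sided tests used limma 3.58.1 (R 4.3.3) on log2(FPKM + 1), with a trend in eBayes and p-values adjusted by Benjamini-Hochberg over the 10540 genes averaging 1 FPKM or more. The fit was tested on simulated data. The members, lists and tests were chosen with earlier results of these data known. The genes named are the 10 members, Pgam5, genes that overlap a member or are most like Hif1a across libraries, and the 3 largest called rises and falls of each list, of which 1 is not reported here. Other list members and the markers named were chosen after their values were seen. With blastn 2.17.0, no other gene matched the longest protein-coding transcript of a member over at least 200 bases at 85% identity. Other transcripts of the members were not searched. Values were handled with Python 3.11.15 and pandas 2.3.3, and figures were drawn with matplotlib 3.10.9. Alternatives were a pseudocount of 0.1, no filter, a mean FPKM of at least 5, TPM, quantile and median scaling, no trend, a replicate block, array weights, each library left out, and voom on recovered fragments.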

Additional observations from a re-analysis of the deposited data

How the results depend on the processing

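Adm, Ddit4, Fam162a, P4ha1 and Egln1 kept their direction and their call under every alternative in which they were tested, and Adm and Ddit4 were not tested at a mean FPKM of at least 5. The number of members called higher ran from 4, with that filter, to 7, with voom on recovered fragments, and 0 were called lower throughout. Vegfa lost its call under 8 of 16 alternatives and Hif1a gained one under 2, with the values given beside each gene, and the cause was not tested. The median log2 fold change of the 5 targets ran from 0.73 to 0.97 and that of the 5 regulators from 0.07 to 0.15. Arnt was at -0.047 to 0.024 when 1 library was left out. Scaled to TPM, 1088 genes were called higher in place of 1771, and 32.3% of all calls were higher in place of 52.9%. FPKM sums differ between the groups and TPM removes that difference. Without a filter 2590 genes were called of 20816 tested. Leaving out 1 library gave 2340 to 2858 calls, with fewer samples in each fit.

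The labels do not say that a replicate number marks a shared culture or day, so the main fit did not use the numbers for pairing. Libraries that share a replicate number did not deviate together (correlations of -0.02, 0.02 and -0.05 across genes). With a replicate block 2652 genes were called in place of 3346, and 5 members were called higher, with Vegfa at an adjusted p of 0.0588 (limma). No other member's call changed. Egln3, with 1 to 11 fragments a library, is limited by depth. Adm and Ddit4 rest on 30 to 234 fragments, and their log2 fold changes were larger with a pseudocount of 0.1 or voom.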

Other observations

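Over the 6 libraries, the genes whose log2(FPKM + 1) followed Hif1a most closely were Gstt4 (Pearson r = 0.99), a glutathione transferase, Ptpn22 (0.99), a tyrosine phosphatase of immune cells, and Icam2 (0.99), an adhesion molecule. These are the highest of 10540 genes over 6 libraries that form 2 groups, so they are given as a description and not as a tested relation.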
